A study of Mus musculus with 10 samples.

Results

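The mitochondrial respiratory chain genes were taken as the 93 gene symbols, of 24538 in the count tables, that begin with Nduf, Uqcr, Atp5 or Cox4 to Cox8 or are Sdha, Sdhb, Sdhc or Sdhd. Their RNA was compared between metastasis-associated macrophages (MAMs) and resident alveolar macrophages (RAMs), with 5 RNA-seq libraries each. MAMs were sorted as CD45+F4/80+LY6C-MRC1+FSC hi CD11B+CD11C- cells from lung metastases under 1 mm, which grew in female C57BL6/J mice of wild type genotype after 1000000 cells of the breast cancer line E0771-LG had been injected into the tail vein at 6 to 8 weeks of age. RAMs carried the same markers except for CD11B-CD11C+ and came from normal lungs of C57BL6/J mice of the same genotype. All samples are labelled 8 to 10 weeks old, and tissue of both groups was digested for 30 min with alpha-amanitin and actinomycin D, which block transcription. Metastases of 2 to 4 mice went into each MAM pool, so a library is not 1 animal, and site, tumor and macrophage type differ between the groups together and cannot be told apart. The labels do not say whether the libraries of a group came from separate experiments, so the p-values measure the spread between these libraries.

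The respiratory chain moves electrons from NADH and succinate to oxygen in the inner mitochondrial membrane. Complex I (Nduf genes) oxidizes NADH, complex II (Sdh genes) oxidizes succinate, complex III (Uqcr genes) passes electrons to cytochrome c, and complex IV (Cox genes) hands them to oxygen. Complex V (Atp5 genes) is the ATP synthase, which is driven by the proton gradient. Alveolar macrophages take up surfactant lipid and are known for an oxidative, lipid-burning metabolism. Several complex IV subunits have isoforms for particular tissues, and the subunits of complexes I, III, IV and V that the mitochondrial genome encodes were not analysed here.

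By role, 36 of the 93 genes encode subunits of complex I, 4 of complex II, 8 of complex III, 20 of complex IV and 15 of complex V. Another 8 are the complex I assembly factors Ndufaf1 to Ndufaf8, and Atp5s and Atp5sl, which match by name, encode no subunit. Ndufa4, first assigned to complex I, was placed in complex IV together with its paralog Ndufa4l2. Subunits with other symbols, such as Cyc1 of complex III and Usmg5 and 2010107E04Rik of complex V, fall outside the rule. They are not in the counts and sums by complex. Differential expression was tested for 85 of the 93. These had at least 1 count and a mean FPKM (fragments scaled by transcript length and sequencing depth) of at least 1 in either group. The other 8 were Ndufb4, Ndufs5, Cox4i2, Cox7b2, Cox8b, Cox8c, Ndufa4l2 and Atp5g2. Ndufs5 and Cox8c had a count of 0 in all 10 libraries. For Cox8c, whose FPKM was also 0 throughout, this allows up to 3 counts per library. Ndufs5 had an FPKM of 2.06 in MAM replicate 1, 4.93 in MAM replicate 3 and 2.24 in RAM replicate 3, and near 0 in the others. Its count of 0 therefore sets no limit on its level, and why counts and FPKM differ was not tested. Only reads mapped to 1 place were counted, and 37 of the 93 transcripts share some stretch of 50 bases with an annotated gene or pseudogene elsewhere. The shared part was 87.4% of Atp5g2, 68.5% of Atp5l, 53.0% of Cox7c, 50.5% of Atp5h, 43.2% of Uqcrb, 41.2% of Ndufs5 and 37.0% of Ndufb4. The levels of these genes are therefore uncertain.

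The libraries held 50746305 to 87523247 counts on genes, of which the 93 genes took 0.398% ± 0.0098 in MAMs and 0.471% ± 0.028 in RAMs (SD, n = 5 each). These shares of unscaled counts did not overlap, at 0.389% to 0.410% in MAMs and 0.436% to 0.513% in RAMs. Levels are given as CPM, library-scaled counts after TMM normalization, and as FPKM where genes are compared with each other. The alveolar markers Siglecf, Car4 and Chil3 and 5 others of 9 were lower in MAMs, and the summed list ran from 414 to 797 CPM in MAMs against 10594 to 13262 in RAMs. All 5 markers of monocyte-derived macrophages were higher, from 6416 to 7485 against 76.1 to 86.9 CPM in sum. The summed markers of neutrophils (102 to 228 against 50.2 to 83.2 CPM) and of endothelium and stroma (20.4 to 46.7 against 1.80 to 10.1 CPM) were higher in MAMs, and those of dividing cells (132 to 179 against 798 to 1046 CPM) lower. The neutrophil sum rests mostly on Csf3r, with means of 146 CPM in MAMs and 68.4 in RAMs, while S100a8 had 4.12 and 1.89. Of 7 epithelial and tumor cell markers, Epcam, Krt19 and Cdh1 were lower in MAMs, and the sum of the list, 9.84 to 24.1 CPM against 589 to 702, rests on these 3. The tumor and epithelial keratin Krt8, too low to be tested, was higher in each MAM library (0.615 to 3.31 CPM) than in any RAM library (0 to 0.205), Krt18 reached 8.84 CPM in MAM replicate 1 against at most 0.438 in RAMs (log2 fold change 3.93, adjusted p = 0.0715, edgeR), Krt14 was found in 2 MAM libraries at up to 0.488 CPM, and Krt5 was at 0 throughout. Lymphocyte (3.76 to 10.4 against 3.38 to 15.3 CPM), striated muscle (0.575 to 4.45 against 0.639 to 3.71) and erythrocyte sums (2.17 to 5.19 against 1.27 to 5.28) overlapped, with Myh6 and Myh7 at 0 throughout, as were Hba-a1, Hba-a2, Hbb-bs and Hbb-bt. The erythrocyte sum is thus Alas2 alone. Since only reads mapped to 1 place were counted, the zeros of the Hba and Hbb genes do not show that their RNA was absent. The part of other cells in the results that follow was not tested, and fewer cells of a type cannot be told apart from less RNA per cell.

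Most respiratory chain genes differed little between MAMs and RAMs. By edgeR (quasi-likelihood, Benjamini-Hochberg over all 11571 genes tested), 18 of the 85 were higher in MAMs and 12 lower at an adjusted p under 0.05. Of all genes tested, 28.9% were higher and 27.3% lower by this rule. The 30 calls were 35.3% of the 85, against 56.2% of all genes in either direction. Changes over 2-fold were found in 3 of the 85, against 30.3% of all genes, and these 3 were Cox6b2, Atp5sl and Ndufaf6. The 5 MAM libraries did not overlap the 5 RAM libraries in 23 of the 85 (27.1%), against 44.9% of all genes. The median log2 fold change of the 85 was 0.13, and that of all genes -0.015. The absolute log2 fold change was under 0.5 in 64 of the 85.

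**Figure D1:**
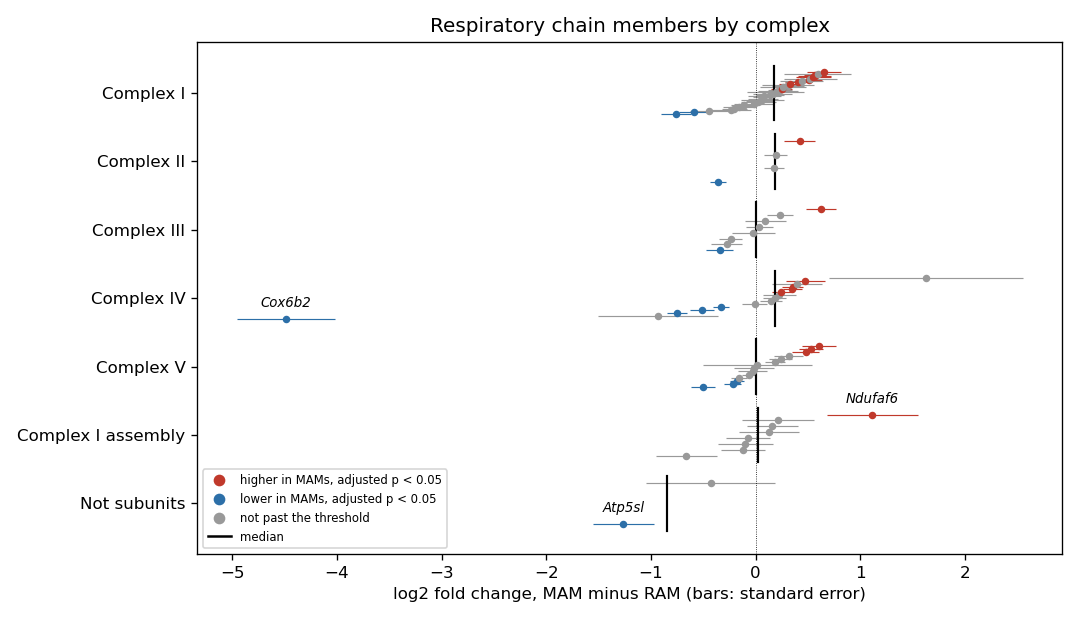
Log2 fold change of MAMs minus RAMs (horizontal axis, bars are standard errors) for the 85 tested genes, grouped by complex, with the group median as a vertical line. Cox6b2 lies at -4.49, far to the left of the other genes, and most others fall within 0.5 of 0.

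The count of calls in each direction depended on the scaling. Under upper-quartile scaling the median of all genes shifted to -0.18, and 8 of the 85 were higher and 20 lower. With library totals alone it shifted to -0.23, with 5 higher and 21 lower. Relative to the median of all genes, the median of the 85 was 0.14 with TMM, 0.14 with upper-quartile scaling and 0.13 with totals. A change of scaling shifts all genes nearly alike and the subtraction takes this out, so these values were bound to be close. Upper-quartile scaling and library totals moved the fold changes downward, which favors keeping lower calls and losing higher ones. All 12 genes called lower with TMM were also called lower under both other scalings, and 9 of them kept the call in every alternative fit, left-out libraries included, all but Atp5c1, Atp5d and Uqcrh. Of the higher calls, 5 of the 18 called higher (Atp5j, Ndufb9, Ndufc1, Ndufc2 and Uqcrq) were called higher under both, and these also kept the call in every alternative fit. None of the 30 calls changed sign under any alternative.

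Cox6b2, an isoform of complex IV subunit 6b known mainly from testis, showed the widest difference of the chain. It had 0.468, 0.281, 0.738, 0.688 and 2.10 CPM in MAM replicates 1 to 5 and 23.4, 24.6, 15.9, 13.8 and 19.9 CPM in RAM replicates 1 to 5. These rest on 15 to 146 counts per MAM library and 659 to 1636 per RAM library, and the groups lie far apart, with MAM replicate 5 above the other MAM libraries. The difference in MAMs came to -4.49 on the log2 scale (edgeR adjusted p = 8.95e-07, standard error 0.47), a 22.5-fold higher level in RAMs, and -5.16 without MAM replicate 5. The separation of the libraries gave p = 0.00794 in a two-sided exact permutation test, the smallest that 5 against 5 libraries can give. The gene lies at chr7:4751792-4753094 on the minus strand (GRCm38) and has 3 exons, its 585-base transcript shares no 50-base stretch with another gene, and no other annotated gene overlaps it.

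Cox6b1, the common isoform of the same subunit, ranged over 68.9 to 81.3 CPM in MAM and 54.3 to 75.8 CPM in RAM libraries, which overlap. Its log2 fold change of 0.18 did not pass the threshold (95% interval -0.04 to 0.40, adjusted p = 0.184, edgeR). On the per-length FPKM scale, Cox6b2 made up 19.1% ± 1.71 of the summed subunit 6b level in RAMs and 1.08% ± 1.06 in MAMs (SD, n = 5 each, two-sided exact permutation p = 0.00794). The RAM libraries held between 17.1% and 21.4% and the MAM libraries between 0.158% and 2.87%. Mean Cox6b2 in MAMs was 4.38% of the RAM mean, and the summed alveolar macrophage markers were at 4.68%. Single alveolar markers ranged from 1.01% (Ear1) and 1.16% (Siglecf) to 63.0% (Marco). MAM replicate 5, with the highest Cox6b2 of the MAM libraries at 10.8% of the RAM mean, had alveolar markers at 3.77%, and MAM replicate 1, with the highest alveolar markers at 6.52%, had Cox6b2 at 2.40%. The part of alveolar macrophages among the sorted MAMs in this residual level was not tested.

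The 250 bases before the transcription start of the pair are given here because the isoforms of 1 subunit differ so much in how their RNA levels compare between the groups. Both are from RefSeq (GRCm38.p6, minus strand of chromosome 7), at chr7:4753095-4753344 for Cox6b2 and chr7:30626115-30626364 for Cox6b1, with CG pairs in capitals.
Cox6b2: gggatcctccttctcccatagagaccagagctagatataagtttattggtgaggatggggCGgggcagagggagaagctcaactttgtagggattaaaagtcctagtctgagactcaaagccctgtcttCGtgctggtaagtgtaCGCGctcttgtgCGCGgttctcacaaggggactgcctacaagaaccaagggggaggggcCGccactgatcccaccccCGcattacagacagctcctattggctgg
Cox6b1: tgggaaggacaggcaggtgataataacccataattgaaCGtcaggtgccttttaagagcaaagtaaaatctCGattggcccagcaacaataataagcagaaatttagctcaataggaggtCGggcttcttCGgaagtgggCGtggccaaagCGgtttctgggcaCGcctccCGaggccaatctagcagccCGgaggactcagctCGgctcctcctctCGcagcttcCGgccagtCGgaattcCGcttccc
The Cox6b2 stretch holds 8 CG pairs and is 54.8% G and C, and the Cox6b1 stretch holds 14 and is 54.0% G and C. The median over the 83 such windows of the respiratory chain genes is 15 CG pairs, and that over all 32851 windows is 6.

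**Figure D2:**
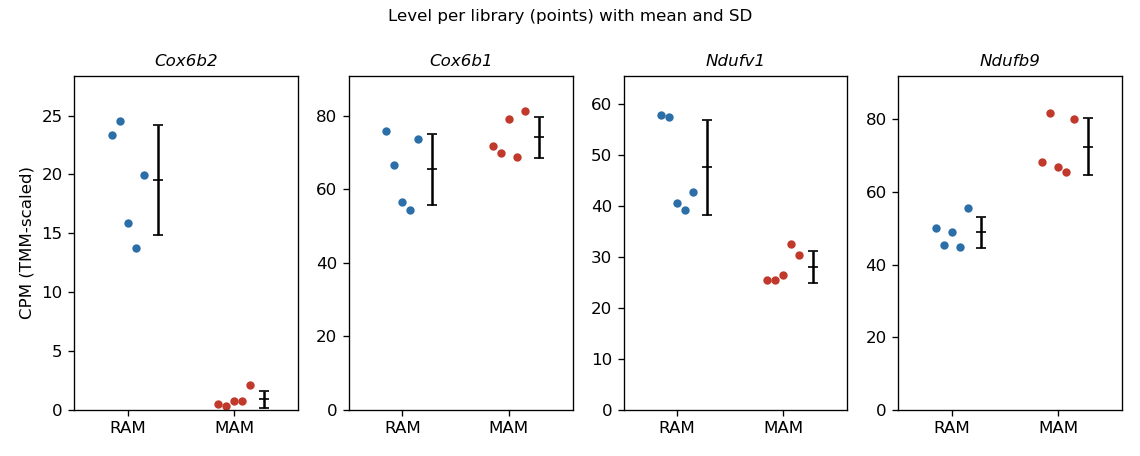
CPM of Cox6b2, Cox6b1, Ndufv1 and Ndufb9 (vertical axes from 0) in each RAM and MAM library (points) with the group mean and SD (n = 5). The groups do not overlap for Cox6b2, Ndufv1 and Ndufb9, and they overlap for Cox6b1.

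The other isoforms of complex IV were rare or did not differ beyond the spread. The muscle isoform Cox7a1 had 0.373 to 3.64 CPM in MAM and 2.43 to 3.98 CPM in RAM libraries, which overlap (log2 fold change -0.93, adjusted p = 0.182, edgeR), and was 5.56% ± 5.75 of the FPKM of Cox7a1 and Cox7a2 in MAMs and 12.8% ± 5.62 in RAMs (SD, n = 5, two-sided exact permutation p = 0.103). The muscle isoform Cox6a2 had 0.131 to 3.62 CPM in MAM and 0.021 to 0.959 CPM in RAM libraries (log2 fold change 1.63, adjusted p = 0.151), and it overlaps Itgad on the opposite strand, whose reads cannot be told apart where strand is not used. Cox4i2, the lung isoform of subunit 4, had 2 to 178 counts in MAM libraries and 4 to 137 in RAM libraries. Its share of the FPKM of subunit 4 was 0.258% ± 0.332 in MAMs and 0.186% ± 0.167 in RAMs (SD, n = 5). Cox8b, the muscle isoform of subunit 8, had 0 to 6 counts in MAMs and 6 to 108 in RAMs. Cox7b2 had counts in only 2 libraries, MAM replicates 4 and 5, and Ndufa4l2, a paralog induced by hypoxia, had 0 to 46 counts per library.

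Of the 15 complex IV genes tested, isoforms included, 4 rose and 4 fell, and Cox6b2 was 1 of the latter. These calls were 53.3% of the 15, close to the 56.2% of all genes. Cox7a2l, a 7a-related factor of respiratory supercomplexes, had 56.0, 59.0, 52.3, 54.4 and 66.0 CPM in MAMs and 106, 101, 89.7, 90.2 and 96.3 CPM in RAMs. The highest MAM library lay well below the lowest RAM library (log2 fold change -0.75, standard error 0.094, adjusted p = 6.32e-06, edgeR). Its transcript shares 17.7% of its 50-base stretches with another gene. Ndufa4 fell by 0.51 on the log2 scale, from 53.2 to 58.6 CPM in RAMs to 32.1 to 44.5 in MAMs (adjusted p = 0.00136). Cox4i1, the common subunit 4, fell by 0.33, with 155 to 180 CPM in MAM and 188 to 226 CPM in RAM libraries (adjusted p = 0.00165). Both pairs of groups were separate.

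Cox8a, the most abundant complex IV gene per length at 546 FPKM in MAMs and 445 in RAMs, rose by 0.35 on the log2 scale (adjusted p = 0.00617, edgeR), and its groups overlapped at 125 to 166 CPM against 106 to 134. Cox6a1 also rose by 0.35, with 103 to 148 CPM in MAM and 94.6 to 102 CPM in RAM libraries (adjusted p = 0.00515). Cox5b and Cox5a rose by 0.48 and 0.24 (adjusted p = 0.0442 and 0.0323), and the groups did not overlap in either. The call of Cox5b was lost with any 1 of 9 of the 10 libraries left out, all but MAM replicate 3, and without a filter on low genes, and that of Cox5a without any 1 of MAM replicates 1 and 2 and RAM replicates 1, 2 and 3. Under upper-quartile scaling Cox8a, Cox6a1 and Cox5b stayed above 0 at 0.19, 0.19 and 0.31 without passing the threshold. Cox6c, Cox7a2, Cox7b and Cox7c did not pass it, with log2 fold changes of -0.0087, 0.23, 0.15 and 0.39.

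In complex I, 8 of the 34 genes tested rose and 2 fell (29.4% called, against 56.2% of all genes), with a median log2 fold change of 0.18. Both that fell are core subunits, which carry the redox centers. Ndufv1, which holds the NADH site and its flavin, had 25.5, 25.4, 26.5, 32.4 and 30.4 CPM in MAMs and 57.9, 57.5, 40.5, 39.2 and 42.7 CPM in RAMs. The groups were separate, and the RAM libraries fell into 2 high and 3 lower values (log2 fold change -0.76, standard error 0.15, adjusted p = 0.000379, edgeR). Ndufs1, a core iron-sulfur subunit of the peripheral arm, had 36.2, 32.2, 46.4, 35.0 and 25.5 CPM in MAMs and 62.0, 50.7, 49.5, 46.2 and 54.5 CPM in RAMs. The highest MAM library just passed the lowest RAM library (log2 fold change -0.58, standard error 0.15, adjusted p = 0.00361). Of the other core subunits, Ndufs3, Ndufs7, Ndufs8 and Ndufv2 did not pass the threshold, with log2 fold changes of 0.52, -0.018, 0.23 and 0.07. Of Ndufs3, 35.8% of the transcript is shared with other genes.

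All 8 genes of complex I that rose encode accessory subunits, which surround the core. Of 27 accessory subunits tested, 8 rose and none fell (29.6% called), against 0 and 2 of 7 core subunits (28.6% called). The median log2 fold change was 0.22 for accessory and -0.018 for core subunits, the latter between -0.10 and 0.08 with 1 library left out. Under upper-quartile scaling 4 accessory subunits were higher and 2 lower with a median of 0.053, and with library totals alone 3 and 3 with a median of 0.00063. Relative to the median of all genes, the accessory median was 0.23 under all 3 scalings, a closeness that the subtraction itself brings about. No test of the difference between the kinds of subunit was made.

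Ndufc1, a small accessory subunit, had 18.5, 21.8, 24.0, 18.6 and 20.3 CPM in MAMs and 12.5, 11.8, 12.1, 15.8 and 13.8 CPM in RAMs. All MAM libraries lay above all RAM libraries (log2 fold change 0.65, standard error 0.16, adjusted p = 0.00311, edgeR). Ndufb9 had 68.2, 81.8, 66.8, 65.5 and 80.1 CPM in MAMs and 49.9, 45.3, 48.8, 45.0 and 55.5 CPM in RAMs, again without overlap (log2 fold change 0.57, standard error 0.10, adjusted p = 0.000281). Ndufa7, Ndufa1, Ndufc2, Ndufa8, Ndufa13 and Ndufs4 rose by 0.57, 0.55, 0.51, 0.40, 0.33 and 0.25, and none of them overlapped between the groups. The call of Ndufs4 (adjusted p = 0.0483) was lost with any 1 of 8 of the 10 libraries left out, all but MAM replicate 4 and RAM replicate 5. Ndufa3 was the most abundant complex I gene per length, with 164 FPKM in MAMs and 165 in RAMs, and its difference was not past the threshold, at 0.13 on the log2 scale (adjusted p = 0.403).

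In complex V, 6 of the 14 genes tested under the symbol rule passed (42.9%, against 56.2% of all genes), with calls in both directions. None of the 7 tested genes of the catalytic head, central stalk and rotor ring rose and 3 fell, and of the 7 genes of the peripheral stalk and membrane part 3 rose and none fell. Their median log2 fold changes were -0.16 and 0.31, and over all 14 it was 0.00097. Atp5e of the central stalk was the 1 gene of the first 7 above 0, at 0.24 (adjusted p = 0.0765, edgeR). Atp5h of the peripheral stalk was the 1 gene of the second 7 below 0, at -0.026. Under upper-quartile scaling 5 of the first 7 fell with a median of -0.33, and 3 of the second rose with a median of 0.15. With library totals alone 5 fell and 1 rose, at -0.38 and 0.10. No test of the difference between the parts was made.

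Atp5g3, a gene for the c subunit of the rotor ring, had 79.4, 57.0, 58.0, 50.3 and 63.7 CPM in MAMs and 92.3, 91.8, 78.5, 89.6 and 85.3 CPM in RAMs. Only MAM replicate 1 reached into the RAM range (log2 fold change -0.50, standard error 0.12, adjusted p = 0.00181, edgeR). It supplied 83.2% ± 3.17 of the FPKM of the c subunit genes in MAMs and 87.3% ± 0.992 in RAMs (SD, n = 5, two-sided exact permutation p = 0.0476), a share in which the level of Atp5g2 is uncertain. Atp5d and Atp5c1, of the central stalk, fell by 0.22 and 0.18 (adjusted p = 0.0297 and 0.0337). Both calls were lost with edgeR's own filter and with no filter, and without any 1 of MAM replicates 2 and 4 and RAM replicates 1, 2 and 5, that of Atp5c1 also without MAM replicate 1. Of the 3 falls in these parts of complex V, that of Atp5g3 alone kept its call in every alternative fit. Atp5b, the catalytic beta subunit and the most abundant gene of the chain per length, had 597 FPKM in MAMs and 642 in RAMs. Its log2 fold change was -0.066 (95% interval -0.20 to 0.067, adjusted p = 0.43), and under upper-quartile scaling it was -0.23 and passed. Atp5a1, the alpha subunit, was at -0.16 (adjusted p = 0.0859) and also passed under that scaling, at -0.33.

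Atp5k, the e subunit of the membrane part, had 18.5, 21.9, 19.2, 15.7 and 21.4 CPM in MAMs and 13.2, 13.3, 12.9, 13.3 and 10.9 CPM in RAMs. The MAM libraries were all higher (log2 fold change 0.60, standard error 0.16, adjusted p = 0.00541, edgeR). Atp5j, coupling factor F6 of the peripheral stalk, had 94.5, 88.9, 81.1, 64.0 and 93.7 CPM in MAMs and 60.3, 63.0, 55.5, 50.9 and 62.2 CPM in RAMs, separate by a narrow margin at MAM replicate 4 (log2 fold change 0.53, standard error 0.12, adjusted p = 0.00114). It overlaps Gabpa on the opposite strand. Atp5o, the OSCP subunit, rose by 0.48 (adjusted p = 0.00548), and 19.1% of its transcript is shared with other genes.

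Complexes II and III each had 1 gene that rose and 1 that fell. Sdha, the flavoprotein that oxidizes succinate, had 272, 288, 231, 247 and 290 CPM in MAMs and 340, 340, 350, 336 and 340 CPM in RAMs. The RAM libraries lay close together and above all MAM libraries (log2 fold change -0.36, standard error 0.075, adjusted p = 0.000722, edgeR). Its partner Sdhb, the iron-sulfur subunit, had 58.2, 53.1, 43.9, 38.1 and 64.3 CPM in MAMs and 43.1, 40.5, 34.9, 33.4 and 40.6 CPM in RAMs. These groups overlapped (log2 fold change 0.42, standard error 0.15, adjusted p = 0.0231), and under upper-quartile scaling Sdhb was at 0.25 and did not pass. It also lost the call without MAM replicate 1 or 5 or RAM replicate 3 or 4. The membrane anchors Sdhc and Sdhd were at 0.19 and 0.18 and did not pass (adjusted p = 0.149 and 0.125). Per length, Sdhd had the highest mean of the 4 over both groups, with 110 FPKM in MAMs and 99.0 in RAMs.

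Uqcrq, a small subunit of complex III, had 44.2, 54.8, 48.1, 41.9 and 52.7 CPM in MAMs and 40.7, 27.9, 23.9, 31.4 and 33.1 CPM in RAMs. RAM replicate 1 came close to the lowest MAM library without reaching it (log2 fold change 0.62, standard error 0.15, adjusted p = 0.00193, edgeR). Uqcrh, the hinge protein, fell by 0.34 (adjusted p = 0.0352), with 35.0 to 53.0 CPM in MAM and 44.9 to 56.7 CPM in RAM libraries. Its call was lost with any 1 of 7 of the 10 libraries left out, all but MAM replicates 1 and 5 and RAM replicate 3, and without a filter. Neither the Rieske iron-sulfur protein Uqcrfs1 (log2 fold change -0.28, adjusted p = 0.123) nor the core proteins Uqcrc1 (0.035, adjusted p = 0.834) and Uqcrc2 (-0.24, adjusted p = 0.0794) passed. Under upper-quartile scaling Uqcrfs1, at -0.44, and Uqcrc2, at -0.41, passed as lower, Uqcrc2 also with limma and without MAM replicate 1 or RAM replicate 4, and Uqcrfs1 without RAM replicate 2. Uqcr10 was the most abundant per length, with 166 FPKM in MAMs and 153 in RAMs (log2 fold change 0.23, adjusted p = 0.135).

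Summed over all subunit genes, the level per length overlapped between the groups. The sum ran from 6350 to 7253 FPKM in MAMs, with a median of 6996, and from 6279 to 6928 in RAMs, with a median of 6877. Complex I supplied 26.4% ± 0.742 of it in MAMs and 24.0% ± 0.416 in RAMs (SD, n = 5), from 25.2% to 27.1% and from 23.6% to 24.6%, so the shares did not overlap. Complex II supplied 4.91% ± 0.344 and 4.96% ± 0.166, complex III 6.74% ± 0.398 and 7.32% ± 0.208, complex IV 31.6% ± 0.733 and 32.8% ± 0.328, and complex V 30.3% ± 0.269 and 30.9% ± 0.162, in MAMs and RAMs in turn. The shares of complexes II and III overlapped between the groups. For complex IV the MAM libraries ran from 30.4% to 32.2% and the RAM libraries from 32.6% to 33.4%, which do not overlap. Without the scaling by length they did, at 17.7% to 18.6% and 17.9% to 18.9% of the summed CPM, while the shares of complex I stayed separate, at 20.5% to 22.3% and 19.2% to 19.8%. For complex V they ran from 30.1% to 30.8% and from 30.7% to 31.1%, which do. These sums rest most on the short, abundant mRNAs.

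**Figure D3:**
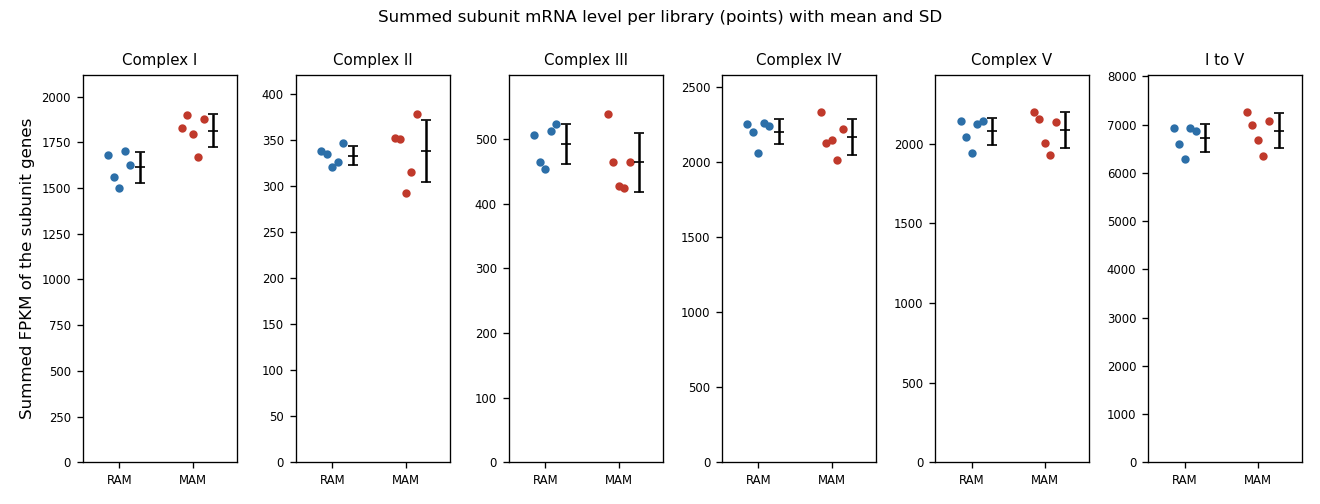
Summed FPKM of the subunit genes of each complex and of all 5 together (vertical axes from 0) in each RAM and MAM library (points), with the group mean and SD (n = 5). Sums of complex I were 1815 ± 91.7 FPKM in MAMs and 1614 ± 83.6 in RAMs, with 1 MAM library within the RAM range, and those of the other complexes overlap more widely.

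Of the genes that assemble the chain, Ndufaf6, a complex I assembly factor, was the only one of the 8 under the symbol rule to pass (12.5%). It had 1.63, 5.79, 4.61, 2.84 and 3.82 CPM in MAMs and 2.55, 1.56, 1.33, 1.32 and 1.85 CPM in RAMs. MAM replicate 1 lay within the RAM range (log2 fold change 1.12, standard error 0.44, adjusted p = 0.0421, edgeR). The call was lost under upper-quartile scaling, where the value was 0.95, and with any of 7 of the 10 libraries left out, the lowest value being 0.90 without MAM replicate 2. Ndufaf1, another assembly factor, had 4.16 to 10.6 CPM in MAMs and 8.10 to 14.0 CPM in RAMs (log2 fold change -0.66, adjusted p = 0.0666). It passed as lower under upper-quartile scaling, at -0.83, with library totals alone, with limma and, at -0.90, without MAM replicate 1. Atp5sl, also called Dmac2 and an assembly factor of the distal membrane arm of complex I rather than a subunit of complex V, had 5.75, 3.88, 12.1, 4.80 and 7.74 CPM in MAMs and 19.8, 15.6, 12.5, 16.6 and 17.8 CPM in RAMs. The MAM libraries were lower throughout, MAM replicate 3 only narrowly (log2 fold change -1.26, standard error 0.29, adjusted p = 0.00173). Its relative Atp5s did not pass (-0.43, adjusted p = 0.575). Of 38 assembly factors outside the symbol rule, 5 rose and 4 fell (23.7% called, against 56.2% of all genes). Uqcc2 was at 1.53 and Cox17, the copper chaperone of complex IV, at 1.21, and Atpaf1 was at -0.90 and Coa6 at -0.76.

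**Figure D4:**
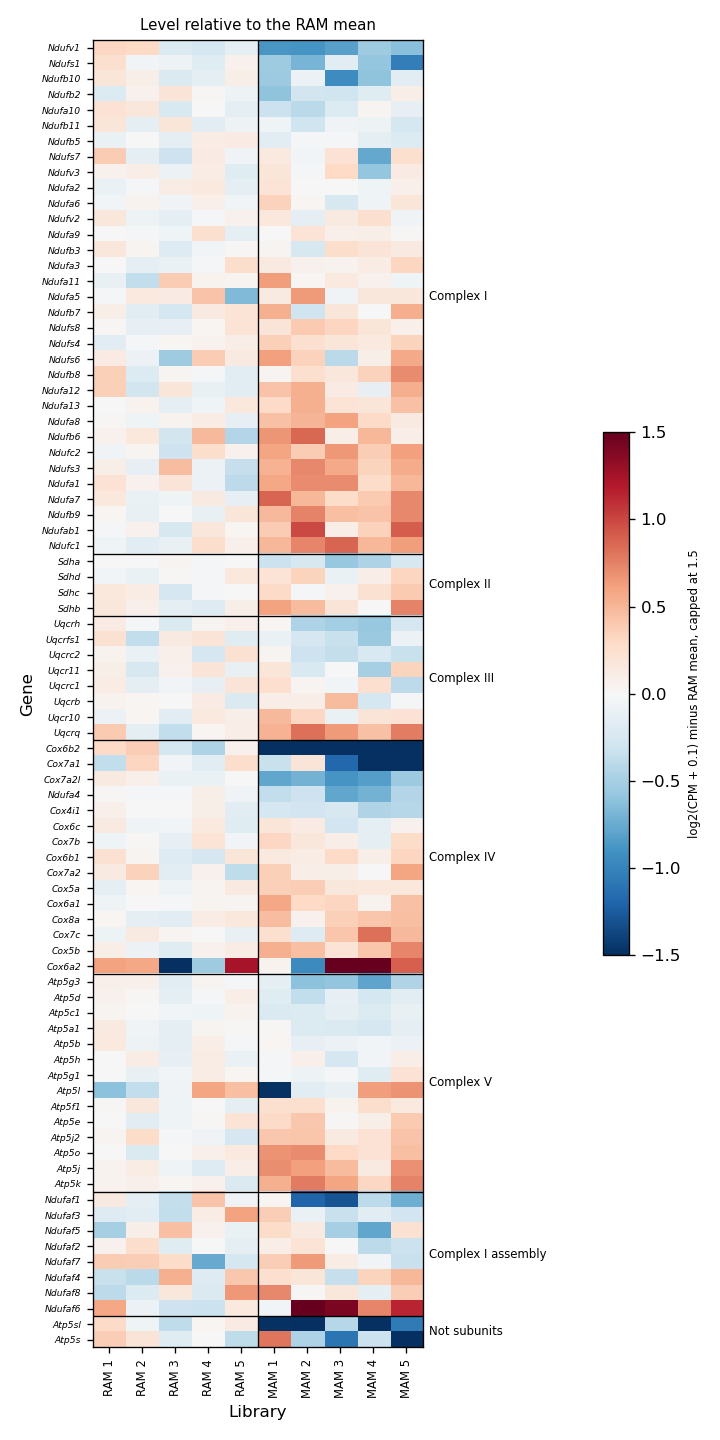
Level of the tested genes (rows, by complex and then by fold change) in each library (columns), as log2(CPM + 0.1) minus the RAM mean, capped at 1.5 in the color scale. Genes such as Ndufv1 and Cox7a2l are lower and Ndufc1 and Ndufb9 higher in all 5 MAM libraries, while Cox7a1, Cox6a2 and Atp5l vary widely within a group.

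The promoters were searched for 4 short motifs because many nuclear genes of the chain are known targets of the factors that bind them. A RefSeq window of 250 bases before to 50 bases after the start was matched for 77 of the 93 genes, and 16 had none (among them Atp5a1, Cox4i1, Cox4i2, Cox6a2, Cox6c, Cox8c, Ndufa2, Ndufa4l2, Ndufaf6, Ndufb9, Ndufs1, Sdhc, Uqcrb, Uqcrc2 and Uqcrq). Both strands were read. GCGCATGCG, a motif of nuclear respiratory factor 1, was found in 10 of the 77 (12.99%) and in 1.95% of all 27025 genes with a window. AAGATGGC, a motif of YY1 whose letters include ATG, was found in 12 (15.6%) against 3.19%. CCGGAAGT, bound by GA-binding protein and other ETS factors, was found in 5 (6.49%) against 4.31%, and TCAAGGTCA, a motif of the estrogen-related receptors, in Atp5g3 and Sdhd, 2.60% against 0.466%. The 250 bases before the start hold a median of 15 CG pairs in the chain genes and 6 over all windows. GCGCATGCG and CCGGAAGT contain CG, and the part of base composition in these shares was not tested. Of the 9 tested genes with the first motif 3 rose and none fell, and of the 12 with the second 3 rose and 1, Atp5sl, fell. Of the 5 with the third, Cox8a rose and Uqcrh fell. Of all 85 genes tested, 18 rose and 12 fell, and a link between motif and change was not tested.

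The matches in the genes that passed the test are given as 30 bases on the strand of the gene, with the motif or its reverse complement in capitals. Those of nuclear respiratory factor 1 are at chr5:108434431-108434460, chr5:115349102-115349131 and chr2:36049329-36049358 in turn (GRCm38.p6, all on the minus strand).
Atp5k: ctttcactgcgGCGCATGCGcctttctggc
Cox6a1: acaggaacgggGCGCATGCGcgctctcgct
Ndufa8: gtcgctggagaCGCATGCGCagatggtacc
Those of YY1 are at chr3:51408915-51408944, chr13:114388045-114388074 and chr16:84835046-84835075, all on the minus strand.
Ndufc1: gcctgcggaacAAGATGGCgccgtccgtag
Ndufs4: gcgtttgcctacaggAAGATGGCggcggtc
Atp5j: aaagtgtaggaAAGATGGCggagtcttagc
That of YY1 in Atp5sl, which fell, is at chr7:25619429-25619458 on the plus strand.
Atp5sl: cgttacctggcAAGATGGCggcgcccagag
Those of GA-binding protein are at chr19:7217604-7217633 in Cox8a, which holds another match, and chr4:116075063-116075092 in Uqcrh, which fell, both on the minus strand.
Cox8a: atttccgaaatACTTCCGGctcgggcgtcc
Uqcrh: gagtatgccgcACTTCCGGccaggtcgccg
The match of the estrogen-related receptor motif in Atp5g3, which fell, is at chr2:73911360-73911389 on the minus strand.
Atp5g3: ttgttacaaagTGACCTTGAgcgtcttccc
The match starts 22 and 35 bases after the first transcribed base in Ndufc1 and Ndufs4, and before it in Atp5j, Atp5k, Cox6a1, Ndufa8, Uqcrh and Atp5g3 and in the stretch shown for Cox8a. In Atp5sl it starts 26 bases after 1 of the annotated starts and before another.

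Few genes that feed the chain passed with a change over 2-fold. They were 2 of 18 tricarboxylic acid cycle and pyruvate dehydrogenase genes (11.1%) and 3 of 19 electron carriers and feeding enzymes (15.8%). The share among all genes tested was 30.3%. Of 18 genes of the tricarboxylic acid cycle, which makes the NADH and succinate that the chain consumes, none rose and 9 fell, with a median log2 fold change of -0.13. Upper-quartile scaling gave the same counts. Idh2, the mitochondrial NADP-dependent isocitrate dehydrogenase, had 17.8 CPM in MAMs and 41.5 in RAMs (log2 fold change -1.22, adjusted p = 1.67e-05, edgeR), and Suclg2, a subunit of succinyl-CoA synthetase, was at -1.08 (adjusted p = 4.89e-05). Of 19 electron carriers and feeding enzymes, 4 rose and 6 fell (52.6% called, against 56.2% of all genes). The 19 include Cyc1, which encodes cytochrome c1 of complex III and lies outside the symbol rule. Cyc1 rose by 0.44 (adjusted p = 0.0293, edgeR), and its groups overlapped. Etfb, a subunit of the flavoprotein that takes electrons from fatty acid oxidation, had 36.2 CPM in MAMs and 113 in RAMs (log2 fold change -1.65, adjusted p = 6.4e-09), and cytochrome c, Cycs, had 3.37 and 8.11 CPM (-1.26, adjusted p = 0.0019). The ubiquinone genes Coq2 and Coq10b rose by 0.77 and 0.66.

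Of 14 uncoupling proteins, carriers and related genes, 7 rose and 6 fell (92.9% called, against 56.2% of all genes). Under upper-quartile scaling 4 rose and 6 fell. Ucp3, an uncoupling protein best known from muscle, had 0.447, 0.618, 0.470, 0.471 and 1.70 CPM in MAMs and 64.4, 57.4, 66.5, 56.3 and 58.3 CPM in RAMs. No MAM library came near the RAM range (log2 fold change -6.31, standard error 0.35, adjusted p = 6.24e-10, edgeR). Ucp1, the uncoupling protein of brown fat, had 0.441 CPM in MAMs and 6.80 in RAMs (-3.95, adjusted p = 4.75e-05). Vdac3 and Usmg5 rose by 0.93 and 0.92. Usmg5 and 2010107E04Rik, which rose by 0.60 (adjusted p = 0.00618, edgeR), encode membrane subunits of complex V that the symbol rule does not match.

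Of 15 regulators of mitochondrial biogenesis, 3 rose and 5 fell (53.3% called, against 56.2% of all genes). Under upper-quartile scaling 2 rose and 6 fell. Pparg, a lipid-sensing nuclear receptor that alveolar macrophages need, had 36.6 CPM in MAMs and 201 in RAMs (log2 fold change -2.45, adjusted p = 1.37e-10, edgeR), and the coactivator Ppargc1b was at -1.63 (adjusted p = 0.000181). Hif1a, the hypoxia-inducible factor, had 647 CPM in MAMs and 101 in RAMs (2.68, adjusted p = 2.38e-12), and Perm1 was at 2.31. The genes of the factors named with the motifs, Nrf1 (-0.16, adjusted p = 0.41), Gabpa (-0.12, adjusted p = 0.31), Yy1 (-0.062, adjusted p = 0.66) and Esrra (-0.31, adjusted p = 0.48), did not pass. Gabpb1, for the other subunit of GA-binding protein, rose by 0.50 (adjusted p = 0.0284), a call that was lost under upper-quartile scaling and without MAM replicate 2 or 4 or RAM replicate 1, 3 or 4.

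Other gene groups of the mitochondrion and the ribosome held few calls too. Calls were 22.1% of mitochondrial ribosomal, 27.3% of import and 20.3% of cytosolic ribosomal genes, against 56.2% of all genes. Of 77 mitochondrial ribosomal protein genes, 12 rose and 5 fell (median log2 fold change 0.043), of 22 import genes 3 rose and 3 fell (-0.040), and of 64 cytosolic ribosomal protein genes 3 rose and 10 fell (-0.045). Under upper-quartile scaling these counts were 8 and 12, 2 and 7, and 2 and 29. Mrpl52 and Mrpl54 rose by 1.63 and 1.48, and Mrps6 was at -1.45 and Mrpl49 at -0.72. Of the import genes, Timm17a and Tomm70a rose by 0.81 and 0.68, and Timm23 was at -1.25 and Timm22 at -0.66. Of the cytosolic ribosomal genes, Rpl31 and Rps27l rose by 1.64 and 0.71, and Rpl3l was at -2.96 and Rpl5 at -1.80.

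The respiratory chain genes have short transcripts, with a median of 865 bases against 2912 for the tested genes with a length. Among the 32 under 700 bases the median log2 fold change was 0.20 with 8 higher and 3 lower, and among the 22 over 1500 bases it was 0.0050 with 2 higher and 5 lower. Over all tested genes the medians in these length classes were 0.012 and -0.025. Calls were 34.4% and 31.8% of the chain genes in the 2 classes, against 39.1% and 58.8% of all tested genes in them. The Spearman correlation of fold change with transcript length was -0.22 over the 85 genes and -0.02 over the 11502 tested genes with a length, genes that share the same libraries and are not independent. Core subunits of complex I have longer transcripts than accessory ones, with medians of 1623 and 732 bases, so role and length cannot be told apart here.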

How the data were processed

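RNA-seq of 5 MAM and 5 RAM samples was used. Per the paper's methods and the submitters' processing notes, the authors aligned paired reads of Ovation RNA-Seq V2 libraries to GRCm38 with TopHat2 2.0.13, counted uniquely mapped reads on RefGene models with HTSeq 0.6.1 and computed FPKM with Cufflinks 2.2.1. A strand setting is not given in the sources used here, so reads of overlapping genes on opposite strands cannot be told apart. The deposited counts are whole numbers without normalization, and the deposited FPKM values are scaled by transcript length and mapped fragments. Rows that name no gene held 56.5% ± 1.65 (SD, n = 5) of each table in MAMs and 63.2% ± 0.898 in RAMs and were left out.

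Groups came from the sample titles. The filter kept genes whose mean FPKM reached 1 in either group and that had at least 1 count. They were tested with edgeR 4.0.16 (quasi-likelihood test, TMM, R 4.3.3), with Benjamini-Hochberg adjustment over 11571 genes. Calls needed an adjusted p under 0.05, and a fold over 2 where stated. Single values were compared with exact two-sided permutation tests over the 252 divisions of the libraries. The limit given for a count of 0 reflects counting error alone, since PCR copies were not marked by molecular identifiers. Alternatives were RLE and upper-quartile scaling, library totals, DESeq2 1.42.0 (the authors used DESeq2 1.6.3), edgeR's own filter, no filter, limma 3.58.1 on log2(FPKM + 1) and log2(FPKM + 0.1), replicate numbers as a block, each library left out, and, for medians only, removal of a transcript length trend. Leaving out genes with shared 50-base stretches was chosen after seeing the data. Scripts were tested on simulated data. Positions and transcripts came from GENCODE M21 (GRCm38). Figures were drawn with matplotlib. The values of 1 gene are not reported here, and it is left out of the heat map.

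The genes and lists were chosen with earlier results of these data known. Named were, per complex, up to 3 called genes with the largest rise and 3 with the largest fall, the isoform sets, the core subunits, assembly factors, non-subunits and the gene with the highest mean FPKM, and from other lists the 2 largest calls each way. Cox5a, Cox6c, Cox7c, Ndufa1, Ndufc2, Ndufa8, Ndufa13, Ndufs4, Nrf1, Gabpa, Esrra and other genes outside this rule were named after their values were seen.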

Additional observations from a re-analysis of the deposited data

Results flagged for a closer look

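In 5 cases 1 library stood apart from the other 4 of its group, by a gap of more than 0.71 of the group's range (Dixon's criterion). With 52 named genes in both groups, 104 sets of 5 libraries were examined, and chance alone marks about 1 in 20. Cox6b2 had 2.10 CPM in MAM replicate 5, against 0.281 to 0.738 in the other MAM libraries. Ndufa3 was also highest in MAM replicate 5, at 31.1 CPM against 25.9 to 27.3. Atp5k had 10.9 CPM in RAM replicate 5, against 12.9 to 13.3 in the others. MAM replicate 1 was highest for Ndufaf3, at 23.3 CPM against 14.3 to 16.8, and for Uqcrc2, at 88.7 CPM against 67.4 to 73.5.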

How the results depend on the processing

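None of the 30 called genes changed sign under any alternative, and RLE scaling and DESeq2 changed no call among the 52 named genes. Of the named genes, 5 lost and 6 gained a call under upper-quartile scaling, and 8 and 6 with library totals alone. Under upper-quartile scaling 8 genes were higher, 20 lower and 0 higher over 2-fold, and the median log2 fold change was -0.044 over all genes of the chain, 0.010 in complex I, 0.018 in II, -0.16 in III, 0.016 in IV, -0.16 in V and -0.14 in the assembly factors. With library totals alone 5 were higher, 21 lower and 0 higher over 2-fold, the median of all of them turned to -0.093, and the medians were -0.037, -0.031, -0.21, -0.034, -0.20 and -0.19 in the same order. Removing the transcript length trend gave -0.028 over all genes of the chain, 0.041 in complex I, 0.037 in II, 0.051 in IV and -0.11 in V. Limma gave 0.10 (pseudocount 1) and 0.11 (0.1) in complex I, with 1 gene lower over 2-fold at pseudocount 1 and 2 higher over 2-fold at 0.1. With edgeR's own filter 0 genes were higher over 2-fold. Without the genes that share 50-base stretches, 9 were higher, of fewer tested. With 1 library left out, 13 to 19 genes were higher and 9 to 14 lower, 0 to 1 higher and 2 to 3 lower over 2-fold, and the median of complex V ran from -0.059 to 0.096, with 0.078 without MAM replicate 1, 0.096 without RAM replicate 4 and 0.062 without RAM replicate 5. Replicate numbers did not pair the libraries (correlations of same-numbered libraries from -0.037 to 0.029, and 2 of 5 matched their own number best). With a replicate block Atp5c1, Atp5d, Cox5a, Cox5b, Ndufs4 and Ndufaf6 lost the call and Ndufaf1 was among those that gained one, and 15 genes were higher, 12 lower and 0 higher over 2-fold. Summed CPM of the 93 genes was 4994 in MAMs and 5084 in RAMs, and 3985 and 4707 with library totals alone. With CPM in place of FPKM the share of complex I was 21.5% and 19.6% and that of complex IV 18.2% and 18.3%. Depth limits the precision of rare genes, and the standard error ran from 0.066 (Atp5c1) to 0.93 (Cox6a2).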
